A study of Mus musculus with 18 samples.

Results

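Transcripts of 9 photoreceptor genes were followed through bulk RNA-seq libraries of mouse retinal pigment epithelium (RPE), the pigmented cell sheet that lies against the photoreceptors. The 9 genes were chosen by symbol from the 21859 rows of the deposited count table, with earlier results of these data known. They were 5 rod transcripts (Gnat1, Sag, Pde6a, Pde6b and Prph2) and 4 cone transcripts (Opn1sw, Arr3, Gnat2 and Pde6h). All 9 were found, and all 9 passed the filter on low counts that left 15944 genes for testing. Rods and cones were summed apart, as an index of photoreceptor RNA in each RPE library.

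The 18 libraries fall into 4 groups. Young (7 libraries) is untreated RPE of young mice and Old (4 libraries) is untreated RPE of aged mice. Old control (3 libraries) is RPE of aged mice given AAV2-tTA, an adeno-associated virus vector for a tetracycline-controlled transactivator. Old OSK (4 libraries) is RPE of aged mice that received the same AAV2-tTA plus TRE-OSK, in which the promoter that tTA acts on drives the reprogramming factors Oct4, Sox2 and Klf4. The vector tTA is thus shared by both injected groups. Mouse strain, exact age, vector dose and interval from injection were not used here. No label says which libraries came from separate animals or whether animals were pooled, so the p-values measure only the spread between libraries, which may in part be technical.

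Phototransduction runs in the outer segments of rods and cones. An opsin that has caught light activates transducin, transducin releases the catalytic subunits of the cGMP phosphodiesterase PDE6 from their inhibitory subunit, cGMP falls, and the cation channel closes; arrestin then binds the opsin and ends the signal. Rods and cones use separate genes for most of these steps. RPE cells ensheath the outer segments, take up their shed tips each day and recycle the chromophore, and a preparation of RPE can carry photoreceptor material with it.

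Library totals lay between 18104828 and 32348136 counts, and levels are given as CPM, a gene's count scaled to a common library size after normalization by the trimmed mean of M-values (TMM). Each of the 12 listed RPE markers (Rpe65, Lrat, Rgr and others) had counts in every library. Their summed level ran from 15398 to 63351 CPM, and Rgr, the RPE retinal G-protein-coupled receptor, was the highest of them. Among the members, the lowest count in any library was 4, for Pde6h in Young 5, and the highest was 113950, for Gnat1 in Old OSK 4. The names of 6 libraries (Young 5, 6 and 7, Old control 2 and 3, Old OSK 4) carry a letter M that the labels do not explain. Among Young libraries the rod sum defined below ran from 179 to 1324 CPM without the M and from 66.2 to 1161 CPM with it.

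The members share a position in one regulatory system that the choice by symbol did not use: photoreceptor genes are bound by the homeodomain factor CRX and, in rods, by the leucine zipper factor NRL. The 250 bases before the annotated start are shown for 2 rod genes and 2 cone genes. The stretches come from RefSeq on GRCm38.p6, chr1:87803430-87803679 (plus strand) for Sag, chr5:108388123-108388372 (plus) for Pde6b, chr6:29380514-29380763 (minus) for Opn1sw and chrX:100605247-100605496 (plus) for Arr3. Each is written 5′ to 3′ on the gene's strand, and capitals mark matches to TAATCC, the core of CRX-type sites, or TGCTGA, part of the NRL-type site, on either strand.
Sag: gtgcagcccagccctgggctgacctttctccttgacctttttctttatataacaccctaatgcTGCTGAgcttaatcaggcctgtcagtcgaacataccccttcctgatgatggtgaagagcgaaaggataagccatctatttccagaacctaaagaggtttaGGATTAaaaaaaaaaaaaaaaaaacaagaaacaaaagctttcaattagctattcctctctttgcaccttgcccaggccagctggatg
Pde6b: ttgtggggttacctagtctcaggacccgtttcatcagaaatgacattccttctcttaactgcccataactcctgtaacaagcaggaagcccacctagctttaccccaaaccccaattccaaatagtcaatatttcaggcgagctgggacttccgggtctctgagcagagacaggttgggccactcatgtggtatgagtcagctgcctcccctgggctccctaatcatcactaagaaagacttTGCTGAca
Opn1sw: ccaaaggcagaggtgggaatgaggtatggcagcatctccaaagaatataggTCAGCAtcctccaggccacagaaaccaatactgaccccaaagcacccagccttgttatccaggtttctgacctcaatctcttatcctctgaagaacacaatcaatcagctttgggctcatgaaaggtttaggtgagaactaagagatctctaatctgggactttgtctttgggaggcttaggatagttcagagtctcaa
Arr3: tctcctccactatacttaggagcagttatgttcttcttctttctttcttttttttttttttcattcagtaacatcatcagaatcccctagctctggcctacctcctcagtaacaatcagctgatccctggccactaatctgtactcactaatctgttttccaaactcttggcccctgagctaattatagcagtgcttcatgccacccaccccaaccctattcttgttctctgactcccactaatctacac
Of the 9 members, 7 had an entry in the promoter table. TAATCC or its reverse complement occurred in 2 of the 7 (Sag and Gnat2, whose RefSeq stretch lies wholly within an exon of the GENCODE annotation) and TGCTGA in 3 of the 7 (Sag, Pde6b and Opn1sw). Over all 32851 stretches of the same length in the table, 6.25% held TAATCC and 16.1% held TGCTGA. In Sag the TGCTGA match began at position -187 and the TAATCC match at -87 from the start; in Pde6b the TGCTGA match began at -8, and in Opn1sw at -199. Prph2, Arr3 and Pde6h held neither motif. These are letter matches, not measured binding, and their part in the levels below was not tested.

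Rod transcripts were present in every library, and their amount differed far more between libraries than between groups. The summed level of the 5 rod members was lowest in Young 5, at 66.2 CPM, and highest in Old control 2, at 7925 CPM, a 119.8-fold range. In Young the sum ran from 66.2 through a median of 778 to 1324 CPM. In Old it was 3256, 951, 949.8 and 2402 CPM in libraries 1 to 4, in Old control 1563, 7925 and 740.0 CPM, and in Old OSK 1244, 3369, 1325 and 7200 CPM. The group means were 698 ± 488 (SD, n = 7) in Young, 1889.9 ± 1139 (n = 4) in Old, 3409.5 ± 3932 (n = 3) in Old control and 3285 ± 2789.5 (n = 4) in Old OSK. The means of Old control and Old OSK each rest on 1 library: without Old control 2 the mean of that group was 1152 CPM, and without Old OSK 4 that of Old OSK was 1979.5 CPM. All 4 groups overlapped. As a share of raw counts, the 5 rod genes made up 0.00582% of Young 5, 0.903% of Old control 2 and 0.815% of Old OSK 4. In bulk RNA, more photoreceptor cells and more photoreceptor RNA per cell cannot be told apart.

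The 4 cone transcripts summed to far less and over a smaller range, between 39.0 CPM (Young 2) and 257.5 CPM (Old OSK 4), which is 6.6-fold. Young ran from 39.0 through 47.6 to 77.4 CPM, Old gave 109, 55.9, 60.8 and 109 CPM, Old control 89.2, 192 and 43.2 CPM, and Old OSK 46.7, 81.9, 55.4 and 257.5 CPM. The means were 54.0 ± 15.9 in Young (n = 7), 83.7 ± 29.3 in Old (n = 4), 108 ± 76.4 in Old control (n = 3) and 110.4 ± 99.2 in Old OSK (n = 4). Old OSK 4 and Old control 2 were again the highest libraries, in the opposite order to the rods. Most of the floor of the cone sum is 1 gene, Gnat2: without it the sum ran between 2.49 CPM (Young 5) and 203 CPM (Old OSK 4), an 81.4-fold range that comes close to that of the rods.

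**Figure D1:**
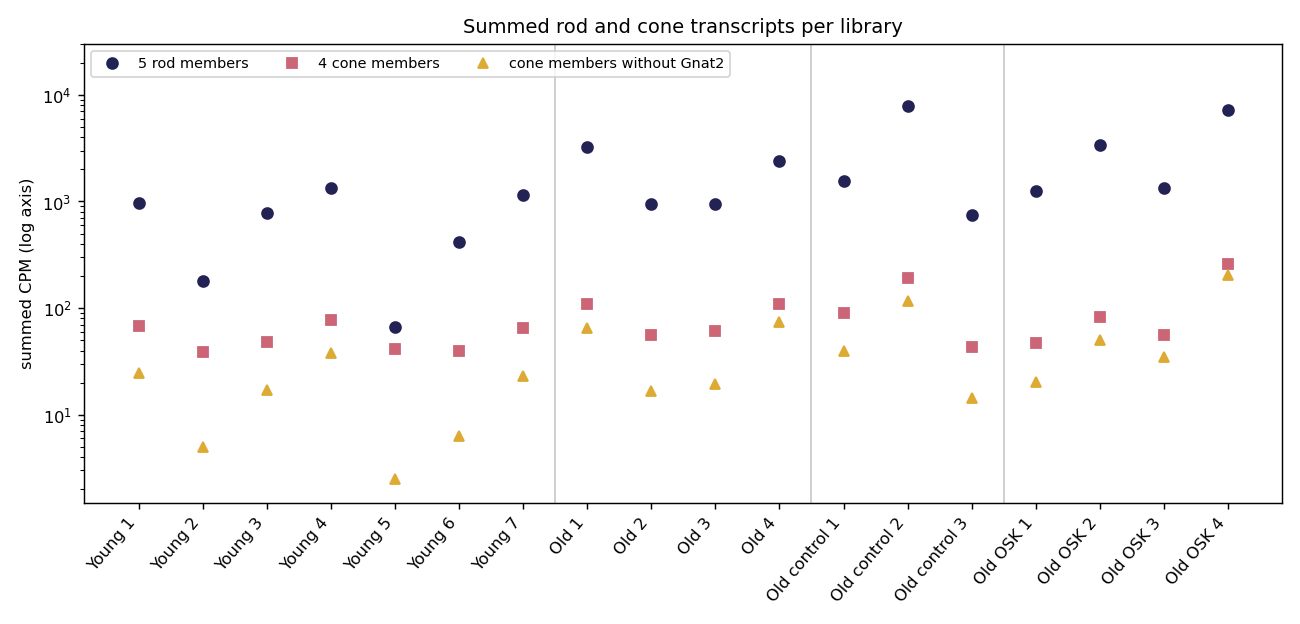
Summed CPM (log axis) of the 5 rod members (circles), the 4 cone members (squares) and the cone members without Gnat2 (triangles) in each of the 18 libraries, with grey lines between the groups. Rod sums span 66.2 to 7925 CPM, while the full cone sum stays between 39.0 and 257.5 CPM because Gnat2 holds it up in libraries with few other photoreceptor transcripts.

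Cone against rod amounts were compared as a percentage within each library. With Gnat2 the cone sum was 62.0% of the rod sum in Young 5, 21.8% in Young 2 and 2.43% in both Old control 2 and Old OSK 2. Leaving out Gnat2, the percentage lay between 1.47 and 3.76 in all 18 libraries, and the group means were 2.53 ± 0.728 in Young (n = 7), 2.22 ± 0.582 in Old (n = 4), 1.98 ± 0.523 in Old control (n = 3) and 2.14 ± 0.670 in Old OSK (n = 4). These groups overlap, and the difference between any pair of means is smaller than the SD in Young.

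The rod transcripts begin with Gnat1, the alpha subunit of rod transducin, which lies on chromosome 9 (GRCm38 107674474 to 107679712, minus strand, from the GENCODE annotation). In Young it ran from 31.7 through a median of 394 to 686 CPM. Old libraries held 1721, 461, 485 and 1097 CPM, Old control libraries 764, 3473 and 381 CPM, and Old OSK libraries 612, 1617.5, 644 and 3534 CPM. Young 5 and Young 2 (85.7 CPM) were the lowest and Old control 2 and Old OSK 4 the highest, and the ranges of all groups overlapped. By mean the order was Young (347 ± 245 SD), Old (941 ± 598), Old control (1539.5 ± 1686) and Old OSK (1602 ± 1370.1), and no neighbours in that order differed beyond their spread.

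Pde6a and Pde6b encode the catalytic alpha and beta subunits of rod PDE6. For Pde6a, Young ran from 6.83 through 77.0 to 118 CPM, Old gave 308, 98.8, 84.6 and 225 CPM, Old control 151, 743 and 70.0 CPM, and Old OSK 106, 355.5, 124 and 595 CPM. Pde6b (chromosome 5, 108388391 to 108432397, plus strand) ran from 5.90 through 50.6 to 104 CPM in Young and stood at 203, 73.3, 72.2 and 166.5 CPM in Old, at 109, 568.5 and 47.6 CPM in Old control and at 79.5, 246, 97.3 and 442.5 CPM in Old OSK. Both subunits were lowest in Young 5, as Gnat1 was, and highest in Old control 2, whereas Gnat1 was highest in Old OSK 4; the groups overlapped for both.

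Sag, rod arrestin (chromosome 1, 87803680 to 87845158, plus strand), ran from 9.44 through 105 to 164 CPM in Young. It reached 381, 137.5, 134 and 468 CPM in Old, 233, 1479 and 112 CPM in Old control and 189.9, 498, 207 and 1262 CPM in Old OSK. Old 4 exceeded Old 1 for Sag, whereas Old 1 exceeded Old 4 for the other 4 rod members. Prph2, a tetraspanin that shapes the rim of outer segment discs and is made by cones as well as rods (chromosome 17, 46910459 to 46924933, plus strand), ran from 12.3 through 152 to 264 CPM in Young, stood at 642.5, 180.1, 174 and 446 CPM in Old, at 306, 1661 and 129 CPM in Old control, and at 257, 653, 252 and 1367 CPM in Old OSK. Per kilobase of merged exon, Gnat1 was the most abundant of the rod members in every group, with a mean of 149 ± 105 CPM per kb in Young and 404 ± 257 in Old, and Pde6a the least, with 14.4 ± 9.79 in Young and 39.0 ± 23.2 in Old (SD, n = 7 and 4).

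**Figure D2:**
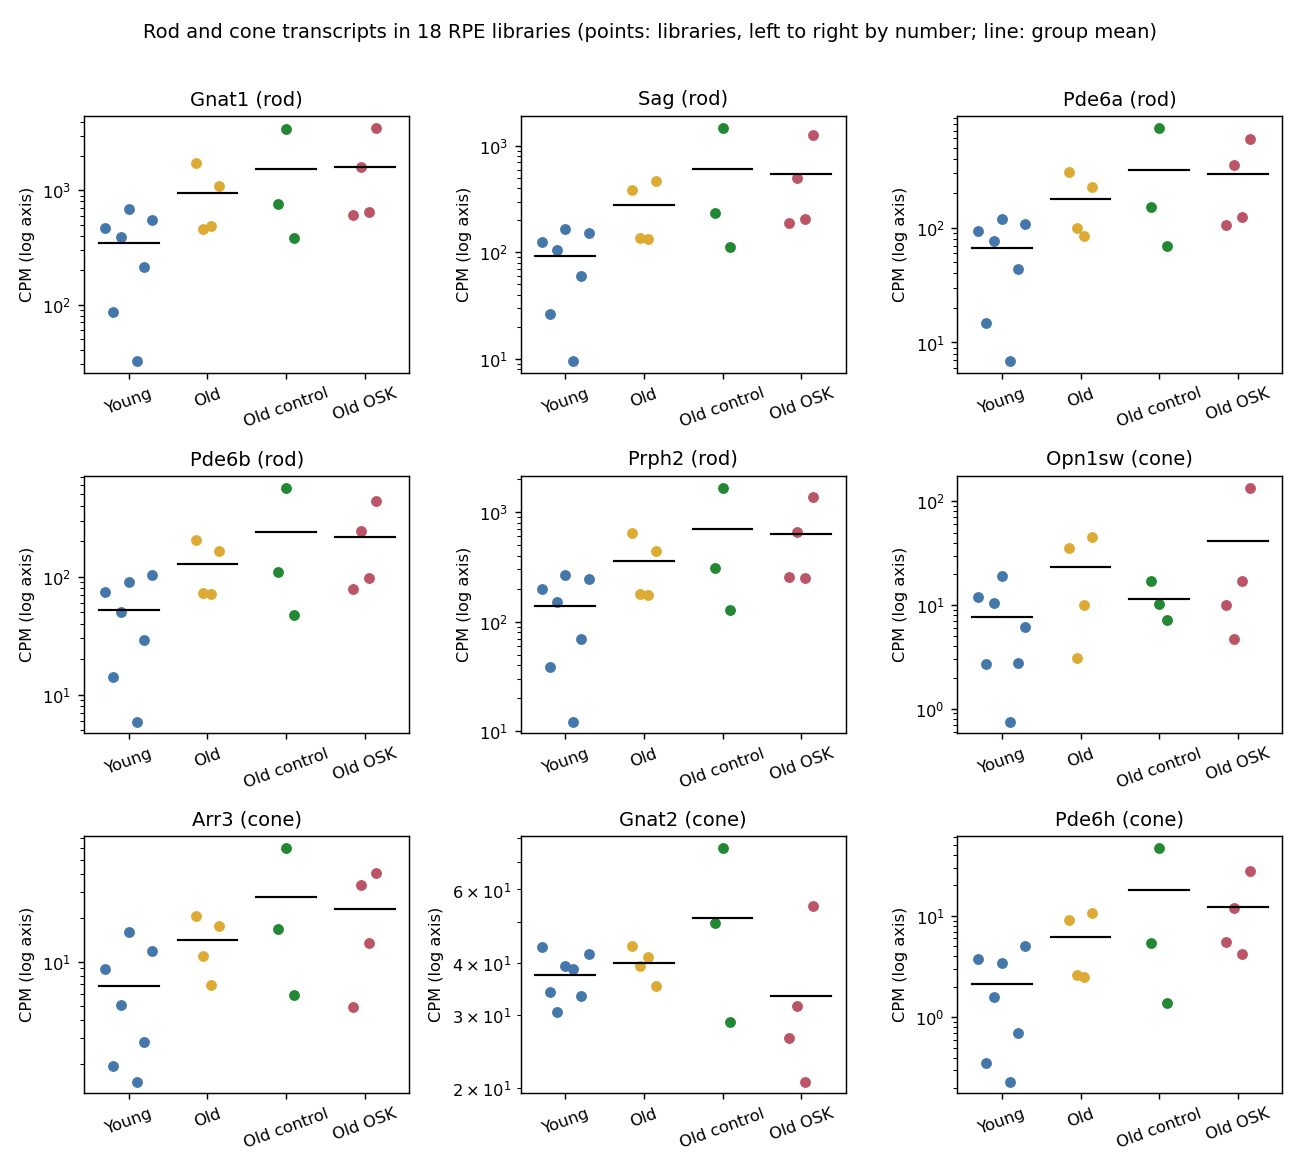
CPM (log axis, scaled separately in each panel) of the 5 rod and 4 cone members in each library, with points in order of library number within a group and a line at the group mean. For the rod members, Arr3 and Pde6h the single high point in Old control is library 2, while Opn1sw has its high point in Old OSK 4 (134.7 CPM) and Gnat2 stays between 20.7 and 75.5 CPM.

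The cone members did not share one pattern. Opn1sw encodes the short-wavelength cone opsin, which in mice is most abundant in ventral cones, and lies on chromosome 6 (29376671 to 29388468, minus strand). Young ran from 0.752 through 6.19 to 18.9 CPM, and Old libraries gave 35.5, 3.08, 10.1 and 45.2 CPM. Old control held 17.1, 10.2 and 7.10 CPM, and Old OSK 10.1, 4.74, 17.1 and 134.7 CPM. Old control 2, the library with the most rod transcript, was thus in the middle of the range for this opsin, and Old OSK 2, exceeded in rod transcript only by Old control 2 and Old OSK 4, was among the lowest.

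Gnat2, the alpha subunit of cone transducin (chromosome 3, 108092789 to 108101432, plus strand), varied least. It ran from 30.5 through 38.5 to 43.7 CPM in Young and gave 44.0, 39.3, 41.3 and 35.2 CPM in Old. Old control held 49.8, 75.5 and 28.8 CPM and Old OSK 26.3, 31.5, 20.7 and 54.9 CPM. In Young 5, where every other member had its lowest value, Gnat2 stood at 38.5 CPM. Group means were 37.3 ± 4.86 in Young (n = 7), 40.0 ± 3.68 in Old (n = 4), 51.4 ± 23.4 in Old control (n = 3) and 33.3 ± 15 in Old OSK (n = 4), with all ranges overlapping.

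Pde6h encodes the inhibitory gamma subunit of cone PDE6 (chromosome 6, 136923832 to 136968865, plus strand). It was the rarest member, from 0.232 through 1.59 to 5.01 CPM in Young, with 9.15, 2.61, 2.49 and 10.8 CPM in Old, 5.43, 46.7 and 1.39 CPM in Old control and 5.47, 12.0, 4.22 and 27.6 CPM in Old OSK. Arr3, cone arrestin (chromosome X, 100605497 to 100618493, plus strand), ran from 1.505 through 5.05 to 15.9 CPM in Young and stood at 20.6, 10.9, 6.93 and 17.7 CPM in Old, at 16.8, 59.9 and 5.91 CPM in Old control and at 4.89, 33.6, 13.4 and 40.3 CPM in Old OSK. Both were highest in Old control 2 and lowest in Young 5, as the rod members other than Gnat1 were. Per kilobase of merged exon, Gnat2 was the highest of the cone members in Young, at 18.2 ± 2.37 CPM per kb (SD, n = 7) beside 18.8 ± 13.7 for the rod gene Pde6b. Opn1sw, Arr3 and Pde6h stood at 3.19 ± 2.69, 5.03 ± 4.06 and 0.361 ± 0.319 CPM per kb there. Exons of the members shared no bases with another gene of the annotation, except 5 bases of Opn1sw with Calu on the opposite strand.

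The rod members kept nearly fixed proportions while their sum moved over more than 100-fold. As a percentage of Gnat1 in the same library, Pde6a lay between 16.8 and 22.0, Prph2 between 32.7 and 47.8, Pde6b between 11.8 and 18.7, and Sag between 22.1 and 42.6, so that the highest and lowest ratios differed 1.31-fold for Pde6a and 1.92-fold for Sag. For the cone members the same ratio differed 4.11-fold for Pde6h, 5.94-fold for Arr3, 14.1-fold for Opn1sw and 78.2-fold for Gnat2, which was 121.5% of Gnat1 in Young 5 and 1.55% in Old OSK 4. Correlations of log2 CPM with the mean of the rod members (each rod member left out of its own mean) were between 0.993 and 0.998 for the rods, 0.976 for Pde6h, 0.953 for Arr3, 0.762 for Opn1sw and 0.41 for Gnat2 over the 18 libraries. These are descriptions over libraries that share depth scaling and groups. Without Old control 2 and Old OSK 4 the value for Gnat2 was 0.022, and within the 7 Young libraries it was 0.25, against at least 0.994 for each rod member there.

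**Figure D3:**
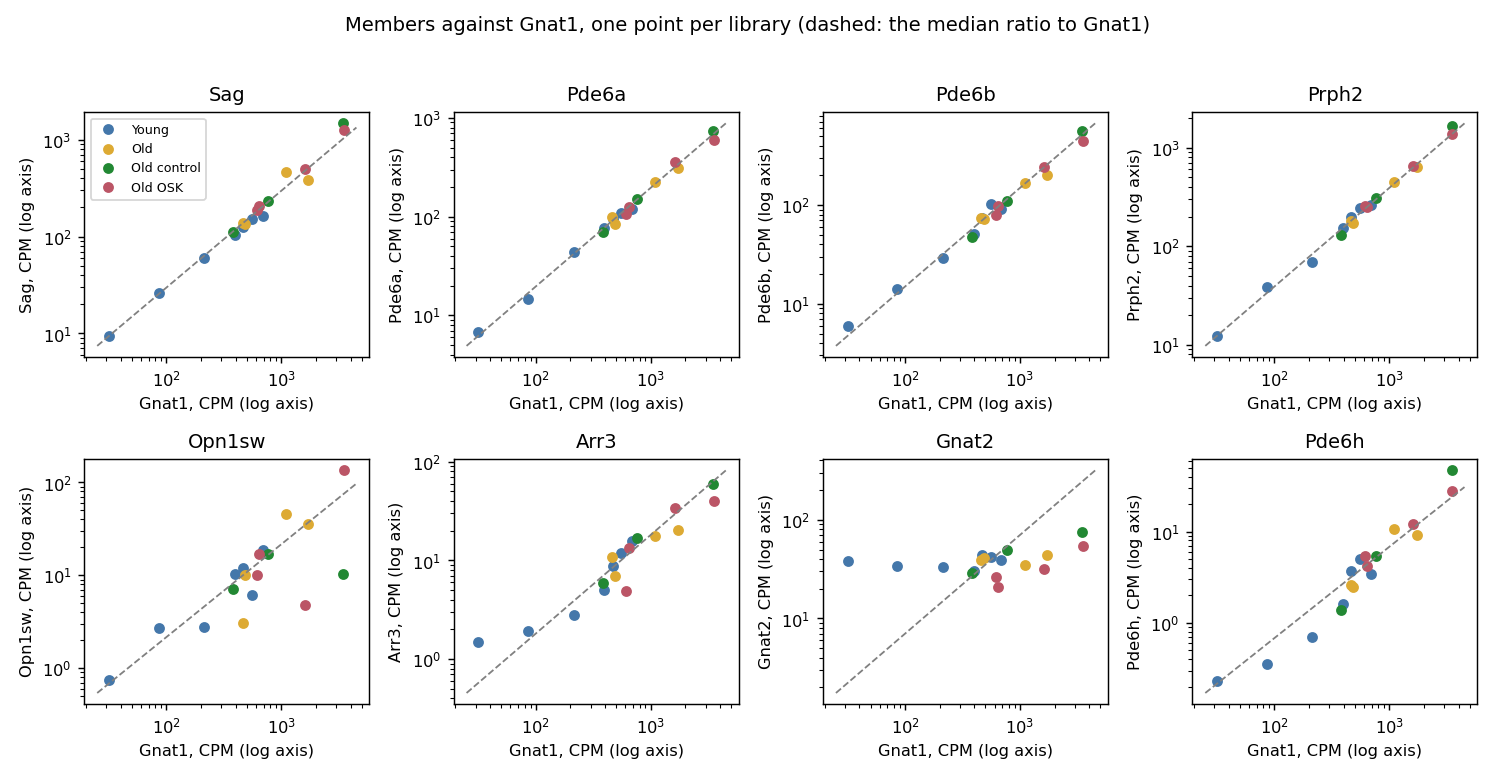
CPM of each other member against CPM of Gnat1 (both axes log), 1 point per library, coloured by group, with a dashed line at the median ratio to Gnat1. Sag, Pde6a, Pde6b and Prph2 follow the line in all groups, Opn1sw falls furthest below it in Old control 2 and Old OSK 2, and Gnat2 stays between 20.7 and 75.5 CPM.

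The spread of Opn1sw was set against Opn1mw, the medium-wavelength cone opsin, which is most abundant in dorsal mouse cones. Opn1mw is not a member and comes from the list of other cone genes. Of the counts for both opsins, Opn1sw took 17.2% in Old control 2 (exact 95% interval 15.5 to 19.1, 1761 counts) and 24.9% in Old OSK 2 (21.0 to 29.1, 458 counts), but 91.5% in Old OSK 4 (90.7 to 92.3, 4743 counts) and 94.9% in Old 4 (93.7 to 95.9, 1595 counts). Old 2 stood at 44.4% (35.8 to 53.2) and Young 7 at 57.9% (50.5 to 65.0), and the other 12 libraries lay between 70.3% and 92.9%. The intervals cover counting error only. Libraries of 1 group therefore differed by more than counting error, while the group means, 79.3 ± 10.8% in Young, 77.0 ± 22.3% in Old, 58.6 ± 35.9% in Old control and 67.7 ± 29.9% in Old OSK (SD over 7, 4, 3 and 4 libraries), differed by less than the spread within the vector groups. Summed, both opsins stayed between 1.18% and 4.34% of Gnat1, a 3.69-fold spread against 14.1-fold for Opn1sw alone, and their log2 sum correlated with the rod mean at 0.948 over 18 libraries.

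**Figure D4:**
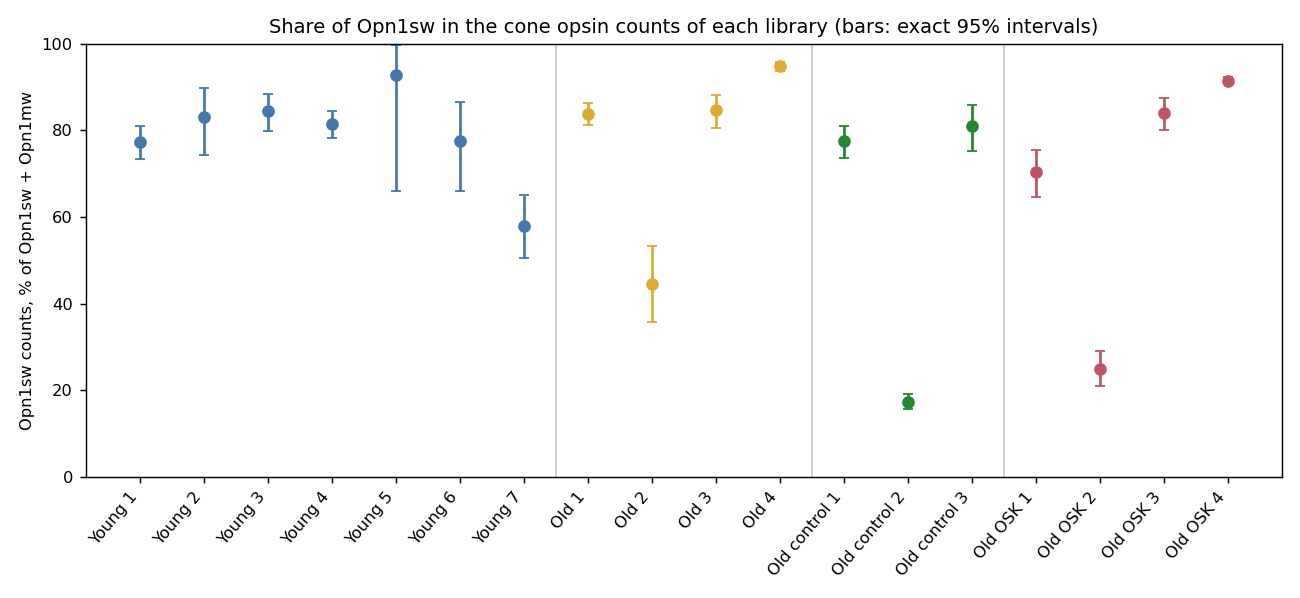
Percentage of Opn1sw in the summed raw counts of Opn1sw and Opn1mw in each library, coloured by group, with exact (Clopper-Pearson) 95% intervals for counting error. Old control 2 (17.2%) and Old OSK 2 (24.9%) lie far below the other libraries of their groups.

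Age was compared as Old against Young in edgeR's quasi-likelihood test over all 18 libraries. The rod members were 2.45-fold to 3.06-fold higher in Old by estimate, but none passed an adjusted p of 0.05. The log2 fold change of Sag was 1.61 (SE 0.75, 95% interval 0.03 to 3.19, adjusted p = 0.164) and Gnat1 one of 1.44 (SE 0.73, -0.10 to 2.98, adjusted p = 0.202). Pde6a, Prph2 and Pde6b stood at 1.44, 1.36 and 1.29, with adjusted p = 0.198, 0.242 and 0.243. Of the cone members, Opn1sw was at 1.6 (SE 0.86, adjusted p = 0.230), Pde6h at 1.55 (SE 0.86, adjusted p = 0.248), Arr3 at 1.03 (SE 0.69, adjusted p = 0.335) and Gnat2 at 0.10 (SE 0.24, 95% interval -0.40 to 0.60, adjusted p = 0.817). Thus 0 of 9 members were called in either direction, where 5.4% of all 15944 genes were called higher (861) and 4.16% lower (663; without TMM scaling these were 972 and 301). At an unadjusted p under 0.05 there was 1 member (Sag), where 29% of all genes were. DESeq2 and limma-trend each called 0 members. The median log2 fold change was 1.44 over the rod members and 1.29 over the cone members, beside -0.004 over all genes. In the 4 Young and 4 Old libraries without M in their names, Gnat1 stood at 1.22 (adjusted p = 0.293, within 0.121 to 0.446 over all alternatives for this gene).

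The vector pair was compared as Old OSK against Old control. Rod members differed little by estimate and the intervals were wide: log2 fold changes were 0.06 for Gnat1 (SE 0.91, 95% interval -1.87 to 1.98), -0.17 for Sag, -0.12 for Pde6a, -0.16 for Pde6b and -0.14 for Prph2, each with an adjusted p of 0.937 or more. Opn1sw was at 1.86 (SE 1.14, adjusted p = 0.316), with means of 41.6 ± 62.2 CPM (n = 4) in Old OSK and 11.49 ± 5.13 CPM (n = 3) in Old control, and without Old OSK 4 it was at -0.14. Gnat2 was at -0.62 (SE 0.29, 95% interval -1.23 to -0.01, adjusted p = 0.183), Arr3 at -0.26 (adjusted p = 0.891) and Pde6h at -0.53 (adjusted p = 0.809). None of the 9 was called, where 0.408% of all genes were called higher and 0.32% lower. Gnat2 alone had an unadjusted p under 0.05, where 26.3% of all genes did. DESeq2 and limma-trend called 0 members. Median log2 fold changes were -0.14 over the rods and -0.39 over the cones, beside -0.028 over all genes.

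The rod values in this comparison rest on the 2 libraries that stand apart. Leaving out Old OSK 4 put Gnat1 at -0.73 and Gnat2 at -1.01 with an adjusted p of 0.0257, which is a call; leaving out Old control 2 put Gnat1 at 1.47 and Gnat2 at -0.26 (adjusted p = 0.546). With both left out, Gnat1 was at 0.68 (adjusted p = 0.617) and Gnat2 at -0.63 (adjusted p = 0.0433), again a call. Of all genes, 5.31% were called lower without Old OSK 4 and 13.7% without both. Beside these shares, 1 call among 9 members is by its count no result about the members. Over all alternatives the adjusted p of Gnat2 ran from 0.0257 to 0.546 and that of Gnat1 from 0.305 to 0.997. The number of all genes called in this comparison was 65 higher and 51 lower with all 18 libraries (64 and 29 with median-ratio size factors, 117 and 60 without TMM), 1007 and 1874 without Old control 2, 896 and 842 without Old OSK 4, and 1664 and 2192 without both. Leaving out any other single library of the vector groups gave between 13 and 68 calls in all. These 2 libraries also carry M in their names, and the part of the M in these counts was not tested.

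Injection of the control vector was compared with no treatment as Old control against Old, which shares its libraries with both comparisons above. No group was injected without a vector, so injection and vector cannot be told apart. Log2 fold changes of the rod members were 0.71 for Gnat1 (SE 0.90), 1.12 for Sag (SE 0.93), 0.84 for Pde6a, 0.91 for Pde6b and 0.95 for Prph2, with an adjusted p of at least 0.903. Among the cone members Pde6h stood at 1.51 (SE 1.05), Arr3 at 0.98, Gnat2 at 0.36 and Opn1sw at -1.03, with an adjusted p of at least 0.9. No member was called, as 0% of genes were called higher and 0% lower. No member had an unadjusted p under 0.05, where 3.74% of all genes did. DESeq2 and limma-trend called 0 members. Without Old control 2 all 5 rod members were below 0, from -0.69 for Sag to -0.73 for Prph2. With the M as a covariate, Gnat1 was at 0.30, Sag at 0.53, Pde6h at 0.72 and Opn1sw at -1.07.

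**Figure D5:**
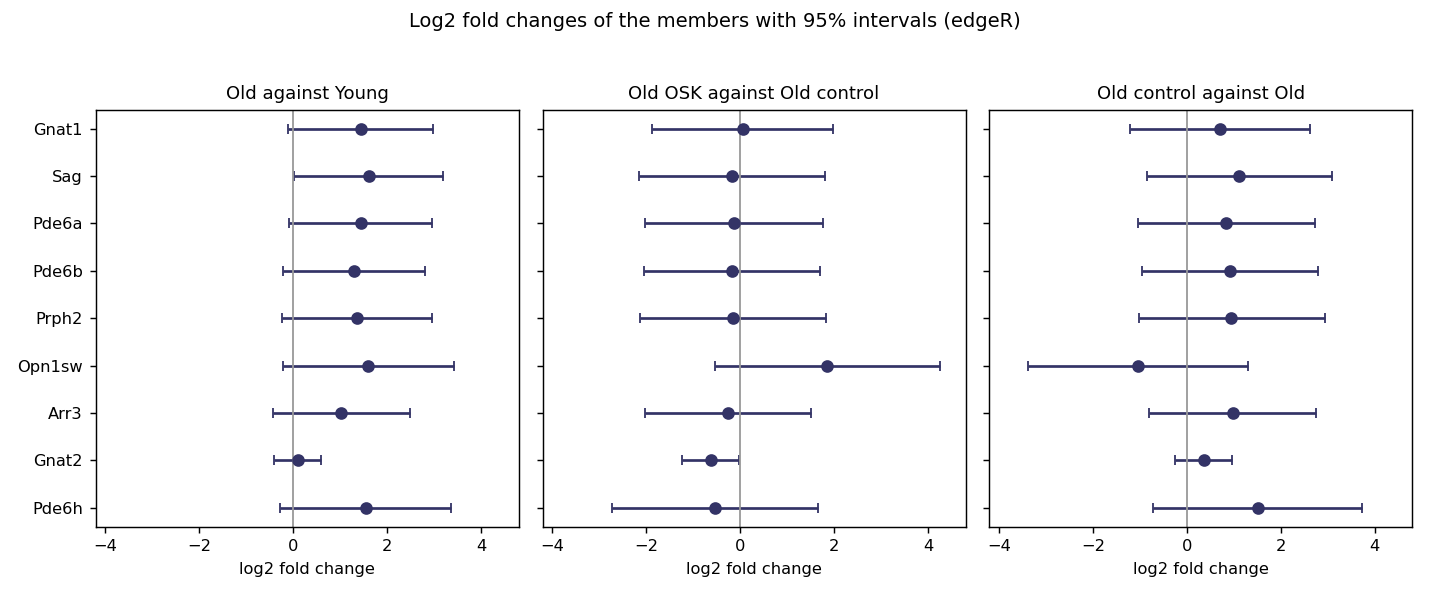
Log2 fold change (points) with 95% interval (bars) of each member in the 3 comparisons, from edgeR's quasi-likelihood fit on 18 libraries. Intervals of the rod members span about 3 to 4 log2 units, and that of Gnat2 is the narrowest, from -0.40 to 0.60 in Old against Young.

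The other genes of the pathway were read from lists of 12 rod genes, 10 cone genes and 16 genes of both photoreceptors, none of them a member. In Old against Young 1 of these 38 genes was called, and it was higher: Gngt2, the gamma subunit of cone transducin, stood at 4.74 ± 1.08 CPM (n = 4) against 1.199 ± 0.488 CPM (n = 7) and rose by 1.98 on the log2 scale (SE 0.43; adjusted p = 0.0127 in edgeR). Beside it, 6 of 8 immune genes (C1qa, C1qb, Tyrobp, Cd68, Aif1 and Ctss) rose in the same comparison, and their part in Gngt2 was not tested. The 38 genes had a median log2 fold change of 1.25. DESeq2 called 2 of them (Gngt2 and Gnb3), limma-trend 1 (Gngt2), and edgeR without Old control 2 and Old OSK 4 called 7, all higher (18.4% of the 38, where 10% of all genes were called higher in that fit). Of all genes edgeR with all libraries called 5.4% higher, DESeq2 7.34% and limma-trend 3.38%. In Old OSK against Old control and in Old control against Old 0 of 38 were called, and the medians were -0.36 and 0.94. Of the 38, 3 and 2 had an unadjusted p under 0.05, where 26.3% and 3.74% of all genes did. DESeq2 called 2 and 0, and limma-trend 0 and 0. The 2 were lower in Old OSK, where DESeq2 called 2.86% of all genes lower. The lowest p in Old OSK against Old control belonged to Slc24a1, the rod sodium, calcium and potassium exchanger, with 495 ± 143 CPM (n = 4) in Old OSK and 1028 ± 291 CPM (n = 3) in Old control (log2 ratio -1.06 with SE 0.26 and adjusted p = 0.0631 in edgeR), followed by Rgs9, the GTPase activator of transducin, at -0.72 (SE 0.22, adjusted p = 0.0841), and Pde6c, the cone PDE6 catalytic subunit, at -0.85 (SE 0.40, adjusted p = 0.184). In Old against Young Gngt2 was followed by Gnb3, a transducin beta subunit, at 1.58 (adjusted p = 0.0732) and Fscn2, an actin bundling protein of outer segments, at 1.6 (adjusted p = 0.111). In Old control against Old the 3 lowest p-values belonged to Gnb3, Opn1mw and Impg2, at 2.01, 2.33 and 1.85, each with an adjusted p of 0.9.

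Gnat2 was not the only photoreceptor gene that failed to track the rods. Of the 12 other rod genes, 10 correlated with the rod mean at 0.9 or more over 18 libraries and 2 did not, Rom1 (0.677) and Slc24a1 (-0.445). Slc24a1 was abundant in all groups, at 1221 ± 215 CPM in Young (n = 7), 989 ± 265 in Old (n = 4), 1028 ± 291 in Old control (n = 3) and 495 ± 143 in Old OSK (n = 4). Of the 10 other cone genes, 2 reached 0.9 (Opn1mw and Slc24a2), while Pde6c (0.14), Kcne2 (-0.059), Cngb3 (0.455) and the thyroid hormone receptor gene Thrb (-0.289) were under 0.5. Of the 16 genes of both photoreceptors, 14 reached 0.9 and 2, Rgs9 (-0.374) and Gucy2f (0.426), were under 0.5. None of these 7 genes under 0.5 was at its lowest in Young 5, the library with the least rod transcript. They were picked for low correlation with the rods over the same libraries, so this is not a separate observation.

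The same genes were set beside the mean log2 CPM of the 12 RPE markers. Over the 18 libraries the rod mean correlated with the RPE mean at -0.685, and each rod member at -0.666 to -0.720. Slc24a1 correlated with the RPE mean at 0.9 and Rgs9 at 0.817, while Gnat2 stood at 0.035 and Pde6c at 0.296. Thrb was at 0.577 and Kcne2 at 0.487, but Gucy2f at -0.158, Cngb3 at -0.219 and Rom1 at -0.248. Without Old control 2 and Old OSK 4 these were 0.944 for Slc24a1, 0.872 for Rgs9, 0.766 for Pde6c and 0.579 for Gnat2, against -0.552 to -0.618 for the rod members. Kcne2 and Thrb were then at 0.732 and 0.678, Rom1 and Gucy2f at 0.222 and 0.213, and Cngb3 at -0.037. CPM of different genes share 1 total per library, and these values are descriptions. In Old OSK against Old control without both libraries, edgeR called 3 of the 38 listed genes, and those were Slc24a1, Pde6c and Rgs9, all lower, beside Gnat2. That is 7.89% of the 38, below the 13.7% of all genes called lower in that fit, so the count itself is no result about these genes. Of the 12 RPE genes 9 were called lower and 2 higher there, where 13.7% and 10.4% of all genes were. With all 18 libraries 0 of the 12 RPE genes were called in this comparison by edgeR and by limma-trend, and 6, all lower, by DESeq2. DESeq2 called 2.86% of all genes lower. In edgeR 9 of the 12 had an unadjusted p under 0.05, where 26.3% of all genes did. The part of the RPE signal in the values of Gnat2 was not tested.

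The genes most like the rod members, by Pearson correlation of log2 CPM with their mean over 18 libraries among 12780 other genes, were led by Nrl (0.999), Tulp1, Aipl1 and Slc17a7 (0.997 each). Crx, Pde6g, Cplx4, Rp1l1 (0.996 each) and Rcvrn (0.995) followed. Nrl ran from 3.94 to 448 CPM and Crx from 2.26 to 291 CPM, and 152 of the 12780 genes reached 0.9. Those most like the mean of the cone members were Rdh12 (0.979), Kcnj14 (0.975), Samd7 (0.973), Aipl1 (0.972), Nxnl2 and Grk1 (0.971 each), Cdk5r2 and Pde6g (0.970 each), Pcare (0.969) and Neurod1 (0.968), and 105 genes reached 0.9. Of the 35 listed photoreceptor genes that entered this search, 23 were among the top 100 for the rods and 23 among the top 100 for the cones.

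Markers of other cell types were read beside the members. The 10 bipolar cell genes summed to 329 CPM in Old control 2 and 169.7 CPM in Old OSK 4, against 28.2 to 87.7 CPM in Young, and 8 of the 10 were highest in Old control 2. Of the 11 tested inner retinal genes 7 were highest in Old control 2 and 2 in Old OSK 4; their sum, led by Slc6a9, lay between 240.1 and 517 CPM in all libraries and was 369.7 CPM in Old control 2. Of the 10 Mueller glia genes 5 were highest in Old control 2, although their sum, led by Rlbp1, which RPE makes as well, was 6292 CPM there and 9015 to 11551 CPM in Young. The RPE list summed to 39931 to 63351 CPM in Young and 26368 to 46154 CPM in Old, to 59927, 20150.5 and 52915 CPM in Old control 1 to 3, and to 29136, 15398, 22385 and 26146 CPM in Old OSK 1 to 4. All 4 Old OSK libraries were thus below every Young library, as were Old 4 (26368 CPM) and Old control 2. The rod sums of these libraries ran from 1244 CPM in Old OSK 1 to 7925 CPM in Old control 2. Old 1, with 3256 CPM of rod transcript, held 46154 CPM of RPE markers. The part of photoreceptor RNA in the RPE sums was not tested. The 8 choroid genes summed to between 133 and 350.1 CPM, led by Dcn, and the 8 immune genes to between 432 and 740.2 CPM, led by Csf1r; 1 choroid gene and 0 immune genes were highest in Old control 2. In Old against Young, edgeR called 1 of 10 bipolar genes higher (Gng13), 2 of 11 inner retinal genes higher (Gad2 and Chat), 1 of 10 Mueller glia genes lower (Gfap), 2 of 12 RPE genes lower (Tyrp1 and Pmel) and 0 of 8 choroid genes (3 at an unadjusted p under 0.05, 1 by DESeq2 and 0 by limma-trend). At an unadjusted p under 0.05 there were 5 of 10 bipolar and 8 of 11 inner retinal genes, where 29% of all genes were. The median log2 fold changes of both lists were 1.81 and 1.93, beside 1.44 over the rod members and -0.004 over all genes. DESeq2 called 5 bipolar and 5 inner retinal genes higher, limma-trend 1 and 1, and edgeR without Old control 2 and Old OSK 4 called 5 and 7. Of all genes these fits called 7.34%, 3.38% and 10.0% higher. With all 18 libraries edgeR called 5.4% of all genes higher and 4.16% lower. No listed gene was at 0 counts in all libraries; Cnga3, Vsx1, Gng13, Onecut1 and Lhx1 were at 0 in at least 1 library. In the other 2 comparisons edgeR called 0 genes of these 6 lists. At an unadjusted p under 0.05 there were 2 in Old control against Old, both of Mueller glia, where 3.74% of all genes were. In Old OSK against Old control there were 2 each of bipolar cells, Mueller glia, inner retinal neurons and immune cells, beside the 9 of RPE. There 26.3% of all genes had such a p. In Old OSK against Old control DESeq2 called 2 bipolar, 1 Mueller glia and 2 immune genes beside the 6 of RPE, and limma-trend 1 bipolar gene. Of all genes DESeq2 called 4.76% higher and 2.86% lower there, and limma-trend 0.577% and 0.32%. Both called 0 in Old control against Old. The part of these cell types in the values of the members was not tested.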

How the data were processed

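Bulk RNA of 18 mouse RPE libraries was measured. The values are raw counts in a single table that the authors deposited; per the submitters' processing notes, STAR 2.7.1a, featureCounts 1.6.2 and the builds GRCm38 and GRCh38 were used, and the annotation and strand setting are not given in the sources used here, so reads from overlapping genes on opposite strands cannot be told apart. Per the labels' protocols, cDNA was amplified with a SMART-Seq kit and cut by transposase, with no molecular identifiers in the table. Library totals lay between 18104828 and 32348136 counts.

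All columns were matched by title. Counts were filtered with filterByExpr (minimum count 10, minimum total 15) in edgeR 4.0.16 (R 4.3.3), scaled by TMM and fitted with 4 group means over 18 libraries (glmQLFit, glmQLFTest); Benjamini-Hochberg adjustment covered all 15944 tested genes, with calls at an adjusted p under 0.05. Intervals of log2 fold changes use the test's t distribution. Correlations used log2 CPM with a prior count of 2. Scripts were tested on simulated counts.

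Members and gene lists were chosen with earlier results of these data known. Named genes were all members, the 3 listed photoreceptor genes with the lowest p in each comparison, and the 10 genes most correlated with the rod and with the cone mean; some genes that meet the naming rules are not reported here. Opn1mw, the genes that did not follow the rods, the called genes of other cell types and the comparison with RPE markers were chosen after their values were seen.

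Replicates differed by a chi-square per gene of at least 21.2, so none was merged. After subtraction of group means, Old OSK and Old control libraries with the same number correlated across genes at 0.103, 0.421 and 0.339. In Old against Young these correlations ran from -0.193 to 0.144, and in Old control against Old from -0.189 to 0.359. The main fits treated no numbers as pairing. The replicate block was an alternative only, run in every comparison. Alternatives were other size factors, no TMM, photoreceptor genes left out of the library sizes, 2 other filters, robust fitting, M in the name as a covariate, DESeq2 1.42.0, only the groups compared, the replicate block, and each library left out. Chosen after seeing the data were limma-trend (limma 3.58.1) and leaving out Old control 2 and Old OSK 4 together.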

Additional observations from a re-analysis of the deposited data

Results flagged for a closer look

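Of 33 groups of 4 to 7 libraries examined, covering the 9 members and the rod and cone sums, 2 held a library far from the others; chance flags about 1 in 20 groups. In Old OSK, Opn1sw stood at 134.7 CPM in Old OSK 4 and between 4.74 and 17.1 CPM in the other 3 libraries. The sum of the 4 cone members was 257.5 CPM in the same library and 46.7 to 81.9 CPM in the others. Both come from 1 library and share Opn1sw, so they are 1 observation.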

How the results depend on the processing

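No member was called in Old against Young or in Old control against Old under any alternative run, and all 225 values of the members in Old against Young kept their direction. In Old OSK against Old control the count of called members ran from 0 to 1 over the fits that leave out a library. The 1 was Gnat2 without Old OSK 4, where 5.31% of all genes were called lower. The count was also 1, Gnat2, with Old control 2 and Old OSK 4 both left out, where 13.7% of all genes were called lower. In that fit Sag was at 0.73 (log2, as all values here unless stated), Pde6a at 0.76, Pde6b at 0.78, Prph2 at 0.77, Opn1sw at -0.22, Arr3 at 0.54 and Pde6h at 1.03. In Old control against Old the same omission gave Gnat1 -0.72, Sag -0.69, Pde6a -0.7, Pde6b -0.72, Prph2 -0.73, Arr3 -0.3, Gnat2 -0.02 and Pde6h -0.88. With the M as a covariate, Old OSK against Old control gave Sag 0.05, Pde6a 0.05, Pde6b 0.06 and Prph2 0.03. With limma-trend it gave Sag 0.23, Pde6a 0.21, Pde6b 0.25, Prph2 0.28 and Pde6h 0.39. With the replicate block, Gnat1 was at -0.23 and Opn1sw at -0.23, and in the same libraries without the pairing at -0.69 and -0.12; the block changed no member's call in any comparison. Every value that reversed missed the test in both fits, and the cause was not tested. Leaving out Prph2, which cones also make, moved the cone sum in Old OSK from 3.485% to 4.331% of the rod sum.

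Leaving out each library in turn, Old OSK against Old control ran from -0.73 to 1.47 for Gnat1, -1.08 to 1.63 for Sag, -0.77 to 1.4 for Pde6a, -0.83 to 1.44 for Pde6b, -0.9 to 1.52 for Prph2, -0.14 to 2.26 for Opn1sw, -0.73 to 0.99 for Arr3, -1.01 to -0.26 for Gnat2 and -1.35 to 1.84 for Pde6h. Old control against Old ran from -0.72 to 1.18 for Gnat1, -0.69 to 1.61 for Sag, -0.7 to 1.32 for Pde6a, -0.71 to 1.4 for Pde6b, -0.73 to 1.45 for Prph2, -0.3 to 1.45 for Arr3, -0.02 to 0.65 for Gnat2 and -0.88 to 2.06 for Pde6h. The rod sum ran from 1152 to 4744 CPM in Old control and from 1979.5 to 3965 CPM in Old OSK.

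Over all genes, Old against Young gave 1524 calls, 2450 with DESeq2, 600 with the M as a covariate, 191 in the libraries without M, 0 with the replicate block (191 in those libraries without it), 2704 without Old control 2 and Old OSK 4, and from 393 without Old 4 to 2140 without Old 1; leaving out Young 1, 4, 5, 6 or 7 or Old 2, 3 or 4 lowered the count by over 1.5 times. Old OSK against Old control gave 116 calls, 1583 with DESeq2, 177 without TMM, 58 with the M as a covariate, 2 with only those groups fitted, 461 with the replicate block and 990 in those libraries without it; leaving out any 1 library moved it by over 1.5 times, from 13 to 2881. Old control against Old gave 0 throughout. With 3 or 4 libraries a group that differ up to 10.7-fold in rod transcript, intervals of the rod members span several log2 units; the lowest count of a rod member in any library was 102.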
